A study of Mus musculus with 12 samples.

Results

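The 10 antigen presentation genes described here are H2-D1 and H2-K1, which encode the heavy chains of classical class I molecules of the major histocompatibility complex (MHC), B2m, which encodes their light chain, the peptide loading genes Tap1, Tap2 and Tapbp, the immunoproteasome genes Psmb8 and Psmb9, and the class II genes Cd74 and H2-Ab1. They were chosen by name, as 10 of the 52636 genes counted, with earlier results of these data known. Each had its own identifier in both count tables. Total RNA of dentate gyrus, the part of the hippocampus that holds the granule cells, was sequenced from C57BL/6 mice in 12 libraries, in 4 groups of 3. The Fst vector group carried an AAV9 vector for the follistatin gene Fst and is labelled OE (overexpressing), with no genotype stated. The GFP vector group was Fst knockout with an AAV9 vector for green fluorescent protein. Both vectors carry the element labelled CB. The KO group was Fst knockout with no vector stated, and the WT group was wild type. AAV9 is an adeno-associated virus used to carry genes into cells. The sources used here give neither the knockout allele, nor ages, nor the route of the vector, nor the time after it. The design text does not settle whether a library pools mice, and p-values therefore measure spread among libraries only.

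Class I molecules carry peptides of a cell's own proteins to its surface, where CD8 T cells read them. The proteasome cuts the peptides, the transporter of TAP1 and TAP2 moves them into the endoplasmic reticulum, and tapasin holds the transporter and the empty class I molecule together while the peptide is loaded. Class II molecules carry peptides from taken-up material, with CD74 as the invariant chain that guards their groove, and in brain they are known mainly from microglia and border macrophages. Class I genes are low in resting neurons, and interferon is the best known signal that raises the whole set, with NLRC5 as the co-activator of class I genes and CIITA as that of class II genes.

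The promoter windows of H2-D1 and H2-K1 are shown because they carry the same 4 motif matches in the same order, and those of B2m, Tap1 and Psmb8 as examples from the light chain, the transporter and the immunoproteasome. Each runs 5′ to 3′ along its gene from 250 bases before to 50 bases after the RefSeq transcript start in GRCm38.p6, with motif matches in capitals. RefSeq gave 2 entries for H2-K1, and the most upstream start was used. Positions in the H2-K1 window depend on that choice. The windows are chr17:35262844-35263143 on the plus strand for H2-D1, chr17:34000298-34000597 on the minus strand for H2-K1, chr2:122147437-122147736 on the plus strand for B2m, chr17:34187306-34187605 on the plus strand for Tap1 and chr17:34197945-34198244 on the plus strand for Psmb8.
H2-D1 promoter: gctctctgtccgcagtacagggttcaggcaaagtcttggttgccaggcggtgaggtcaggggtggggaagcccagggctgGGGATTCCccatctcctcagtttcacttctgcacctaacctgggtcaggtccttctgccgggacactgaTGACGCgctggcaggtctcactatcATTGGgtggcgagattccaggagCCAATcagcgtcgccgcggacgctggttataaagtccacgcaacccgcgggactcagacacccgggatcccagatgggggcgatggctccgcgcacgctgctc
H2-K1 promoter: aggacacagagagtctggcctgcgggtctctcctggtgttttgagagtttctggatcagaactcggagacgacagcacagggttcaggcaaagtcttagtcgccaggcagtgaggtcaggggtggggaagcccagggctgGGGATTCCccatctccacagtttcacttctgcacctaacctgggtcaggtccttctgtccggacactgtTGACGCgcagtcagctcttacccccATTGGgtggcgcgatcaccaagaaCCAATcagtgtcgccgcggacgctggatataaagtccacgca
B2m promoter: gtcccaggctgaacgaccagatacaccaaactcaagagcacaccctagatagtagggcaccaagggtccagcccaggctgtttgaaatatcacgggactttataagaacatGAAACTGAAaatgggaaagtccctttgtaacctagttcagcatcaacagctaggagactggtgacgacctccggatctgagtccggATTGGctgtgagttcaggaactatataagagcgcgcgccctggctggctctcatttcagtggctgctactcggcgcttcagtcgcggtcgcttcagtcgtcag
Tap1 promoter: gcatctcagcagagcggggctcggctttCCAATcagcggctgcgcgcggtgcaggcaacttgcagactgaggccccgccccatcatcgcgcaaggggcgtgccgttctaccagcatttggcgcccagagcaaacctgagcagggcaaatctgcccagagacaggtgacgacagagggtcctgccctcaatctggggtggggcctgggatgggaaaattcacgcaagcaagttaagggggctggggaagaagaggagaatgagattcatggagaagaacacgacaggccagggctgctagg
Psmb8 promoter: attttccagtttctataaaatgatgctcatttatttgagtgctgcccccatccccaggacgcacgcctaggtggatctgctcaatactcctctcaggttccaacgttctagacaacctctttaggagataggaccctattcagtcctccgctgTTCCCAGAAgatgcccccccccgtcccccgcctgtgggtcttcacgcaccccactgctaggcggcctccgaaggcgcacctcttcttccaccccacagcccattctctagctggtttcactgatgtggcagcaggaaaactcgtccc

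Windows of 7 of the 10 genes were searched on both strands, those above and those of Tapbp and Psmb9. GGGATTCC, the kappa B core of the class I enhancer A, occurred in the windows of H2-D1 and H2-K1 and in 1.07% of the 27025 promoters of the table. TGACGC, a form of the X2 box bound by the class I enhanceosome, also occurred in these 2 windows and in 7.50% of all promoters, whereas TGACGT, its other form, occurred in none of the 7 and in 7.64% of all. ATTGG, the Y box or inverted CCAAT motif, occurred in 6 of the 7, all but Psmb8, and in 37.9% of all. GAAANNGAA, a form of the core bound by interferon regulatory factors, occurred in B2m alone of the 7, as GAAACTGAA at bases -139 to -131, and in 8.57% of all. Only this form was searched, so its absence from the other windows does not show that they lack a site for these factors. Both heavy chain windows hold tttcacttc after the kappa B match, a run of similar letters on the other strand that this form does not cover. The same limit holds for the kappa B and X2 forms. The B2m window, for example, holds gggaaagtccc and tgacga, which differ from the forms searched. TTCNNNGAA, the core bound by STAT proteins, occurred in Psmb8 alone of the 7, as TTCCCAGAA at bases -97 to -89, and in 8.47% of all. In both heavy chain windows the kappa B match began 69 bases before TGACGC, which began 25 bases before the first ATTGG. The 2 windows were 88.7% identical over 238 aligned bases, and the coding sequences were 91.5% identical over 1077 aligned bases. The windows of Tap1 and Psmb9, which are read in opposite directions from neighbouring starts, shared 275 bases, so the CCAAT in the Tap1 window and the ATTGG in that of Psmb9 are the same site. GENCODE transcripts begin inside the windows of H2-K1, B2m, Tap1, Tapbp and Psmb9 and not inside those of H2-D1 and Psmb8, whose positions therefore hold for RefSeq's start only. A match here is a run of letters and does not show binding.

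**Figure D1:**
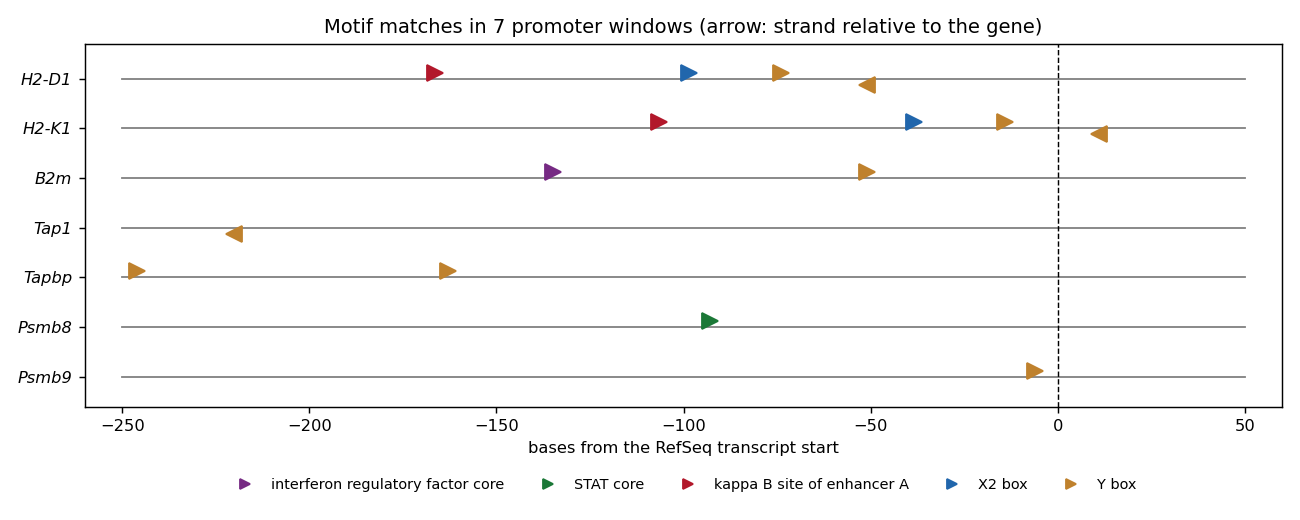
Motif matches in 7 promoter windows by distance in bases from the RefSeq transcript start (dashed line). Each arrow is a match and points along the strand on which it was found. H2-D1 and H2-K1 carry the same 4 matches in the same order, 1 kappa B core, 1 X2 box and 2 Y boxes. The H2-K1 set lies nearer to the start used, the most upstream of 2 entries, and its distance depends on that choice.

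Of the 10 genes, 8 lie on chromosome 17 within the MHC, between bases 33915899 and 35267499 of GRCm38. H2-K1 (ENSMUSG00000061232) lies at one end at 33996017 to 34000347 on the minus strand and H2-D1 (ENSMUSG00000073411) at the other at 35262730 to 35267499 on the plus strand. Psmb9 (34181987 to 34187764, minus strand), Tap1 (34187553 to 34197225), Psmb8 (34197721 to 34201454), Tap2 (34203527 to 34216321) and H2-Ab1 (34257689 to 34269419), the last 4 on the plus strand, follow each other between them, and Tapbp spans 33915899 to 33929292 on the plus strand. B2m lies on chromosome 2 at 122147686 to 122153083 and Cd74 on chromosome 18 at 60803848 to 60812652, both on the plus strand. Reads of near-identical or overlapping genes may be split or shared in these counts, because the sources used here name neither the counter nor its use of strand. Of the 50-base stretches of the longest coding transcript, 14.3% of those of H2-D1 and 8.79% of those of H2-K1 also occurred in transcripts of other genes, most with H2-Q1 for H2-D1 and with H2-D1 for H2-K1. The share was 21.0% for Tapbp, 12.6% for Tap2, 12.5% for Psmb9, 6.47% for Tap1 and 5.83% for Psmb8, most with Gm19412 for Tapbp and with neighbouring genes for the others, and none was found for B2m, Cd74 or H2-Ab1. With stretches of 150 bases the share was 1.79% for H2-D1, 8.73% for Tapbp, 5.24% for Psmb9, 2.25% for Tap1 and 0.668% for Tap2. None was then found for H2-K1 or Psmb8. Counts of the heavy chains, Tapbp and the 4 genes of the Tap and Psmb cluster are thus uncertain. The shares depend on the length compared, and the use of strand is not named, so they do not give the size of that uncertainty.

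Libraries held 8081824 to 11331337 counts over genes, and a floor of 3 counts corresponds to 0.265 to 0.371 CPM, the count of a gene per 1000000 counts of its library. The floor covers counting error only. Fst, the targeted gene, stood at 166 to 204 CPM in Fst vector libraries, at 0 to 0.0974 CPM in GFP vector libraries and at 0.203 to 0.428 CPM in KO libraries, against 3.54 to 4.50 CPM in WT libraries. Libraries are named M or F for the sex in their titles, and for 4 libraries, the F1 and M2 ones of KO and WT, the description names the opposite sex. Counted ribosomal RNA genes made up 0.0115 to 0.0209% of the counts of Fst M2, Fst F, GFP M2, KO M2 and WT F1, and 0.000550 to 0.000976% of those of the 7 other libraries. GFP F stood apart, with the highest level of 8 of the 10 genes among the 12 libraries. Changes of the 10 genes between vector and non-vector libraries are given with and without it, as are many other results.

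The genes covered a wide range of levels. Scaled by exon length, B2m averaged 77.6 CPM per kilobase over the 12 libraries, followed by H2-D1 at 17.2, H2-K1 at 11.9, Tapbp at 5.23, Tap2 at 1.53, Cd74 at 0.947, Tap1 at 0.649, Psmb8 at 0.633, Psmb9 at 0.519 and H2-Ab1 at 0.417. Class I chains and tapasin thus ranked above the transporter, immunoproteasome and class II genes, among which Cd74 ranked above Tap1, Psmb8 and Psmb9. All annotated exons merged measured 1679, 5476, 3381 and 3660 bases for Cd74, Tap1, Psmb8 and Psmb9. Their longest coding transcripts measured 1410, 2953, 1628 and 1352 bases. The order among these genes depends on the length used, as does the size of ratios per kilobase. Group means ran GFP vector, Fst vector, WT, KO from high to low for 7 genes. Tap2 and Cd74 were highest in the Fst vector group, and Tapbp was lower in WT than in KO. Libraries of the vector groups overlapped for all 10 genes, those of KO and WT overlapped for all but H2-D1 and Psmb9, and the lower vector group lay clear of the higher of WT and KO for all but Tap1 and Tap2.

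**Figure D2:**
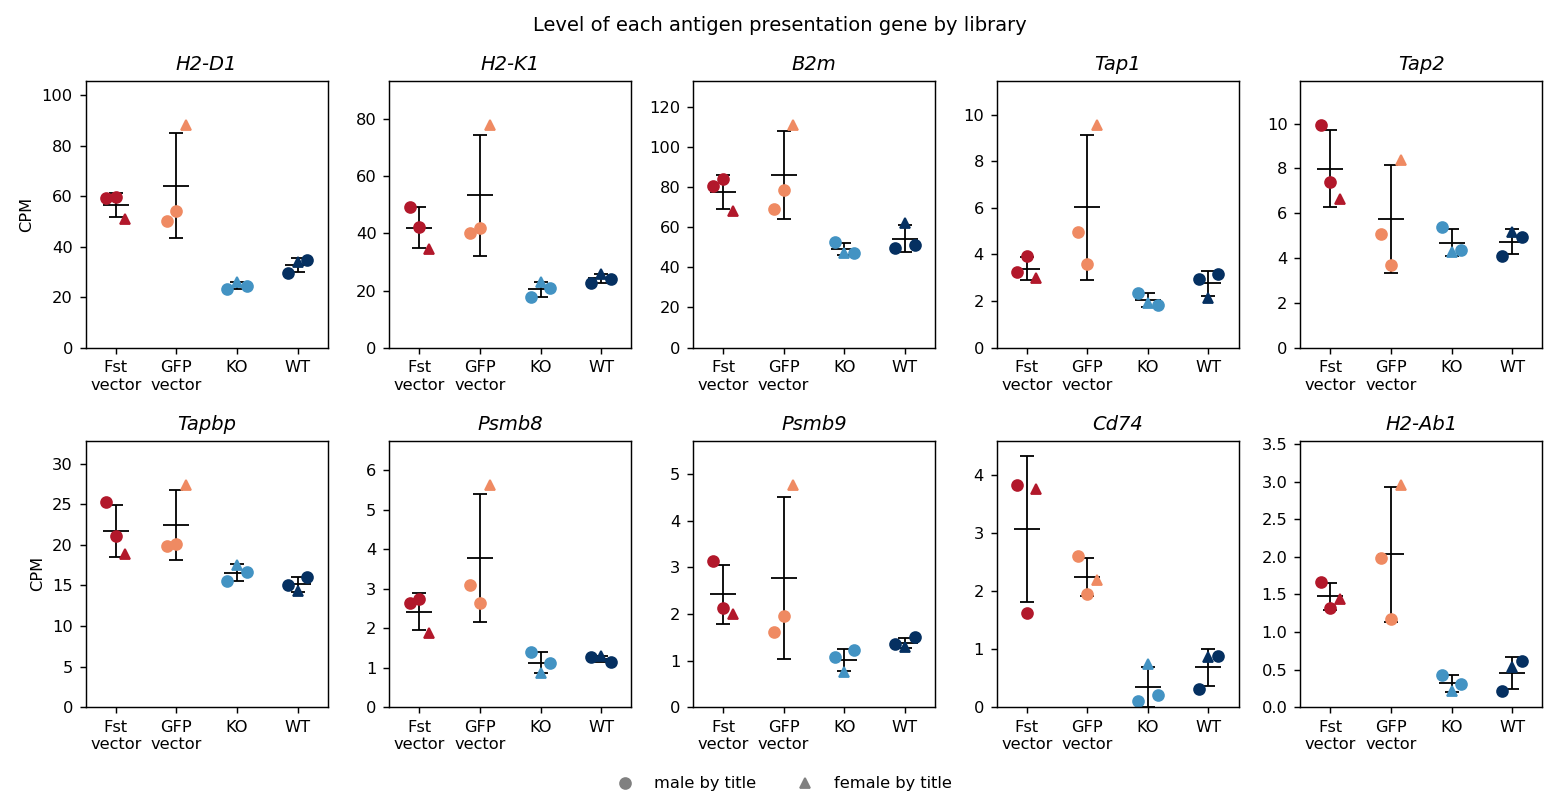
CPM of each of the 10 genes in the 12 libraries, with circles for male and triangles for female libraries by title, and the mean ± SD of each group (n = 3) in black. Libraries of both vector groups sit above those of KO and WT for 8 genes, all but Tap1 and Tap2, and GFP vector F is the highest point for 8 genes, all but Tap2 and Cd74.

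Vector libraries were set against non-vector libraries, that is the 6 libraries of the Fst vector and GFP vector groups against the 6 of KO and WT, in a single edgeR fit of all 12. Vector and non-vector libraries were deposited in separate tables, so the vector, its delivery and anything else that differs between the tables cannot be told apart. In bulk RNA, more cells of a type and more RNA per cell cannot be told apart either. A gene is called where edgeR's quasi-likelihood test gives a Benjamini-Hochberg adjusted p under 0.05 over all 15632 genes tested. Of the 10 genes, 9 rose in vector libraries and none fell, while 24.5% of all genes tested were called and 12.6% were called higher. The libraries of 8 genes did not overlap, with the vector libraries higher, which held for 7.01% of all genes tested. The 10 genes were chosen with earlier results of these data known, so these shares describe the set and do not test it. The median log2 change of the 10 genes was 1.06 and that of all genes tested was 0.01. Without GFP F, the same fit called 9 of 10, with a median of 0.82.

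H2-D1 stood at 59.2, 59.4 and 50.9 CPM in Fst vector M1, M2 and F and at 50.1, 54.3 and 88.0 CPM in GFP vector M1, M2 and F, against 23.1, 26.1 and 24.4 CPM in KO M1, F1 and M2 and 29.5, 33.9 and 34.5 CPM in WT M1, F1 and M2. Every vector library was above every non-vector library, and WT was above KO with no overlap. The gene rose by a log2 change of 1.06 ± 0.12 (SE, adjusted p = 1.96e-04 by edgeR), a 2.08-fold higher level in vector libraries, and ranked 53 of 15632 genes by p. Without GFP F the change was 0.91 ± 0.08.

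H2-K1, the second heavy chain, stood at 49.2, 42.2 and 34.7 CPM in Fst vector M1, M2 and F and at 40.2, 41.9 and 77.9 CPM in GFP vector M1, M2 and F. It stood at 17.6, 22.9 and 20.7 CPM in KO M1, F1 and M2 and at 22.7, 26.0 and 24.1 CPM in WT M1, F1 and M2. Vector libraries again lay clear above all others, and KO and WT overlapped. It rose by 1.06 ± 0.17 on the log2 scale (adjusted p = 0.00127), 2.09-fold, and by 0.87 ± 0.10 without GFP F.

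B2m, whose product pairs with every class I heavy chain of this kind, stood at 80.3, 84.3 and 68.1 CPM in Fst vector M1, M2 and F and at 68.9, 78.4 and 110.7 CPM in GFP vector M1, M2 and F. It stood at 52.4, 47.3 and 47.2 CPM in KO M1, F1 and M2 and at 49.7, 61.9 and 51.3 CPM in WT M1, F1 and M2. The vector libraries did not overlap the others. Its rise, 0.63 ± 0.11 on the log2 scale (adjusted p = 0.00169), was 1.55-fold, and the change was 0.52 ± 0.08 without GFP F. Per kilobase, B2m was 2.12 to 2.62 times the sum of H2-D1 and H2-K1 in vector libraries and 2.76 to 4.08 times in non-vector libraries, with no overlap. The ratio of H2-D1 to H2-K1 per kilobase overlapped, at 1.29 to 1.67 in vector and 1.30 to 1.63 in non-vector libraries.

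Among the peptide loading genes, Tap1 stood at 3.24, 3.95 and 2.99 CPM in Fst vector M1, M2 and F and at 4.95, 3.60 and 9.54 CPM in GFP vector M1, M2 and F, against 2.36, 1.93 and 1.83 CPM in KO M1, F1 and M2 and 2.94, 2.15 and 3.18 CPM in WT M1, F1 and M2. Fst vector F lay below WT M2, so the libraries overlapped, and GFP F was far above the next library. Tap1 rose by 0.90 ± 0.24 on the log2 scale (adjusted p = 0.0153) and by 0.64 ± 0.20 without GFP F, where it was still called.

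Tap2, the other chain of the transporter, stood at 9.92, 7.39 and 6.64 CPM in Fst vector M1, M2 and F and at 5.07, 3.70 and 8.40 CPM in GFP vector M1, M2 and F. It stood at 5.37, 4.28 and 4.37 CPM in KO M1, F1 and M2 and at 4.09, 5.15 and 4.94 CPM in WT M1, F1 and M2. GFP M1 and M2 lay within or below the non-vector range while the other 4 vector libraries lay above it. Tap2 was the only one of the 10 not called, at 0.50 ± 0.20 (adjusted p = 0.0786), and was called without the filter on low counts (adjusted p = 0.0467) and without GFP M2 (0.0292). Without GFP F it was at 0.30 ± 0.17 and not called (adjusted p = 0.216 by edgeR). The ratio of Tap1 to Tap2 per kilobase was 0.226, 0.369 and 0.311 in Fst vector M1, M2 and F and 0.674, 0.672 and 0.785 in GFP vector M1, M2 and F, against 0.288 to 0.496 in non-vector libraries. The Fst and GFP vector groups did not overlap in it, and the difference in this ratio was not tested.

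Tapbp, which encodes tapasin, stood at 25.2, 21.1 and 18.9 CPM in Fst vector M1, M2 and F and at 19.9, 20.1 and 27.4 CPM in GFP vector M1, M2 and F. It stood at 15.6, 17.6 and 16.7 CPM in KO M1, F1 and M2 and at 15.1, 14.3 and 16.1 CPM in WT M1, F1 and M2. Vector libraries lay above the others without overlap. Its rise of 0.45 ± 0.11 on the log2 scale (adjusted p = 0.00928), 1.37-fold, was the smallest among the 9 genes called. The change of Tapbp was 0.36 ± 0.10 without GFP F.

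The immunoproteasome subunits replace constitutive subunits of the proteasome and favour peptides that class I molecules bind. Psmb8 stood at 2.65, 2.73 and 1.88 CPM in Fst vector M1, M2 and F and at 3.09, 2.63 and 5.63 CPM in GFP vector M1, M2 and F, against 1.40, 0.857 and 1.12 CPM in KO M1, F1 and M2 and 1.26, 1.29 and 1.15 CPM in WT M1, F1 and M2. The vector libraries were all higher, on 182 counts in all, against 69 in non-vector libraries. It rose by 1.33 ± 0.25 on the log2 scale (adjusted p = 0.00251), and by 1.12 ± 0.23 without GFP F.

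Psmb9 stood at 3.14, 2.13 and 1.99 CPM in Fst vector M1, M2 and F and at 1.61, 1.95 and 4.77 CPM in GFP vector M1, M2 and F. It stood at 1.07, 0.750 and 1.22 CPM in KO M1, F1 and M2 and at 1.36, 1.29 and 1.5 CPM in WT M1, F1 and M2. The vector libraries were higher without overlap, with GFP M1 close to WT M2, on 154 counts in vector and 71 in non-vector libraries. The rise was 1.10 ± 0.30 (adjusted p = 0.0158), and 0.77 ± 0.25 without GFP F, where it was still called. Psmb10, the remaining subunit of this kind, rose by 0.74 ± 0.12 (adjusted p = 0.00123). Of the constitutive counterparts, picked after values had been seen, Psmb7 rose by 0.26 ± 0.08 (adjusted p = 0.0333), while Psmb5 was at 0.30 ± 0.12 (adjusted p = 0.0773) and Psmb6 at 0.23 ± 0.10 (adjusted p = 0.113). Per kilobase, Psmb8 was 1.11 to 4.02% of Psmb5 in vector libraries and 0.746 to 1.07% in non-vector libraries. Psmb9 was 0.908 to 2.56% of Psmb6 in vector libraries and 0.512 to 1.06% in non-vector libraries, which overlapped. Psmb10 was 71.4 to 98.5% of Psmb7 in vector libraries and 49.96 to 79.7% in non-vector libraries, so that immunoproteasome subunits stood at very unequal levels beside their counterparts.

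The class II genes were the lowest of the 10 in counts and had the largest log2 changes. Cd74 stood at 3.83, 1.62 and 3.76 CPM in Fst vector M1, M2 and F and at 2.598, 1.95 and 2.19 CPM in GFP vector M1, M2 and F. It stood at 0.107, 0.750 and 0.203 CPM in KO M1, F1 and M2 and at 0.315, 0.858 and 0.883 CPM in WT M1, F1 and M2. Vector libraries lay clear of the rest, on 153 counts, against 31 in non-vector libraries, where KO M1, KO M2 and WT M1 held 3 counts or fewer. It rose by 2.35 ± 0.38 on the log2 scale (adjusted p = 9.89e-04). GFP F was not the highest library for Cd74, and without it the change was 2.35 ± 0.40.

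H2-Ab1, the beta chain of the class II molecule, stood at 1.67, 1.32 and 1.44 CPM in Fst vector M1, M2 and F and at 1.98, 1.17 and 2.96 CPM in GFP vector M1, M2 and F. It stood at 0.430, 0.214 and 0.305 CPM in KO M1, F1 and M2 and at 0.210, 0.536 and 0.618 CPM in WT M1, F1 and M2. Every vector library was above every non-vector library, on 102 counts in vector and 23 in non-vector libraries. Its rise was 2.12 ± 0.35 on the log2 scale (adjusted p = 0.00110) and 1.92 ± 0.36 without GFP F. Because several non-vector libraries held few reads, these fitted changes carry wide errors.

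The direction was the same in libraries of higher and of lower ribosomal RNA share. Among the 3 vector and 2 non-vector libraries of higher share, all 10 genes had the higher mean in vector libraries, by 0.31 to 2.20 on the log2 scale, and among the 3 vector and 4 non-vector libraries of lower share all 10 did, by 0.59 to 2.58. The vector libraries of lower share include GFP F, and no values without it are given for this split. The share of all genes with a higher mean in vector libraries was not computed. These values were computed after the data had been seen and were not tested. GFP vector was also set against KO, both Fst knockout by their labels, in the same fit and on libraries shared with the comparison above. There 7 of the 10 were called, all higher in GFP vector libraries, while 2.12% of all genes tested were called higher. That count was 3 without GFP F, 0 without KO M1, 1 without KO F1 and 1 without KO M2, while calls over all genes, 559 in the full fit, were 141, 7, 20 and 10. The log2 changes without a KO library stayed near those of the full fit for H2-K1, at 1.27 to 1.44 against 1.37, and for Psmb8, at 1.56 to 1.91 against 1.73. That of Cd74 moved more, to 2.195, 3.703 and 2.324 without KO M1, F1 and M2, against 2.607. Without GFP F the change of Psmb8 was 1.31.

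**Figure D3:**
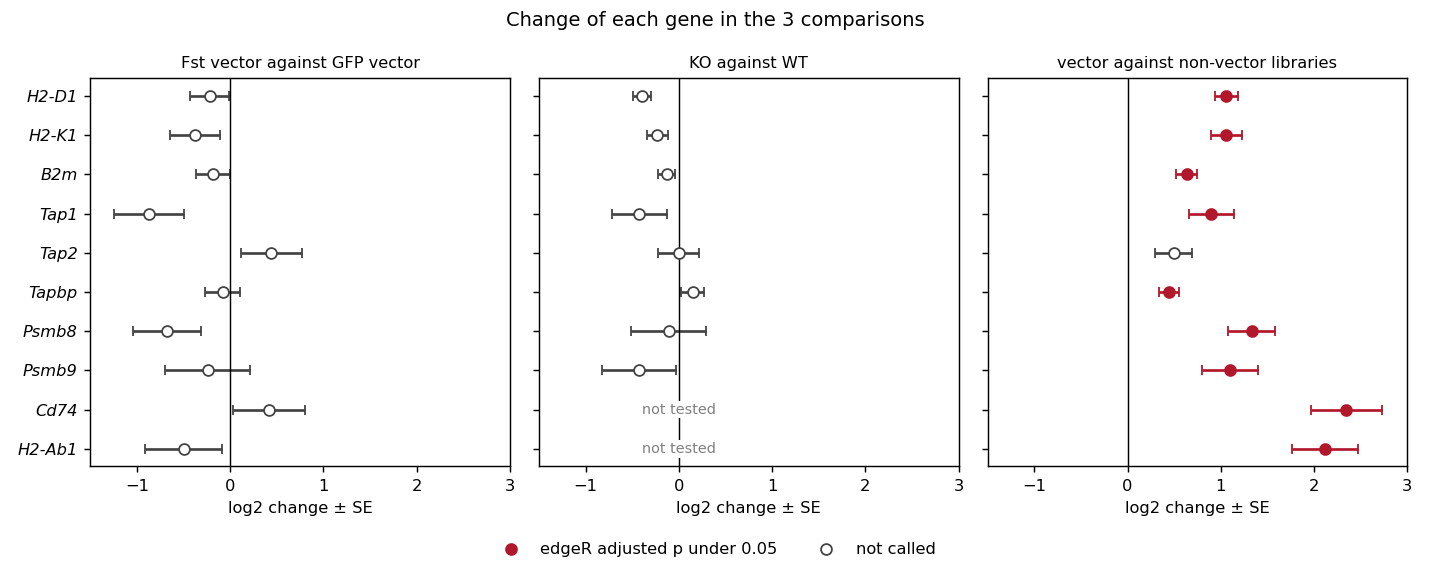
Log2 change ± SE of each gene in 3 comparisons, with the first-named group higher to the right of 0, filled red where edgeR's adjusted p was under 0.05. No gene was called for Fst vector against GFP vector or for KO against WT, and 9 of 10 were called for vector against non-vector libraries.

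KO was compared with WT on the 6 libraries of their own table, which addresses what loss of Fst does to these genes. H2-D1 was the gene with the clearest difference, lower in each KO library (23.1 to 26.1 CPM) than in any WT library (29.5 to 34.5 CPM), by -0.40 ± 0.10 on the log2 scale. It was not called, with an adjusted p of 0.210 by edgeR. None of the 8 genes tested was called, by edgeR or by DESeq2, while 0.0268% of all 14919 genes tested were called by edgeR. At an unadjusted p under 0.05 there were 2 of the 8, H2-D1 and H2-K1, against 5.96% of all genes tested. KO libraries lay below WT libraries without overlap for 2 of the 8, H2-D1 and Psmb9, which held for 7.04% of all genes tested. H2-K1 averaged 20.4 ± 2.66 CPM in KO and 24.2 ± 1.65 CPM in WT libraries (SD, n = 3 each), at -0.23 ± 0.11 (adjusted p = 0.837). B2m was at -0.13 ± 0.09, Tap1 at -0.42 ± 0.30, Psmb9 at -0.43 ± 0.40, Psmb8 at -0.11 ± 0.40, Tap2 at 0.00 ± 0.22 and Tapbp at 0.15 ± 0.12. Cd74 and H2-Ab1 had too few reads in this table to be tested, on 10 and 9 counts in KO against 21 and 14 in WT.

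Fst vector was compared with GFP vector on the 6 libraries of their own table. The GFP vector group was Fst knockout and the genotype of the Fst vector group is not stated, so the vector's gene and the genotype cannot be told apart here. The libraries overlapped for all 10 genes. None of the 10 was called by edgeR or DESeq2, and 0.0798% of all 15034 genes tested were called by edgeR. This fit did not pair libraries. With same-named libraries as a block, edgeR called 0 of the 10 and 150 of all genes tested. At an unadjusted p under 0.05 there was 1 of the 10, Tap1, against 9.51% of all genes tested. Tap1 averaged 3.39 ± 0.50 CPM in Fst vector and 6.03 ± 3.11 CPM in GFP vector libraries (SD, n = 3 each), at -0.87 ± 0.38 on the log2 scale (adjusted p = 0.522), and was at -0.36 ± 0.30 without GFP F. Psmb8 was at -0.68 ± 0.37, H2-Ab1 at -0.50 ± 0.41, H2-K1 at -0.38 ± 0.27, Psmb9 at -0.24 ± 0.45, H2-D1 at -0.22 ± 0.21, B2m at -0.19 ± 0.18 and Tapbp at -0.08 ± 0.19. Tap2 was at 0.44 ± 0.33 and Cd74 at 0.42 ± 0.39. Without GFP F the values of H2-D1, B2m, Tapbp and Psmb9 turned positive, at 0.08, 0.04, 0.09 and 0.41, with none called. The spread within the GFP vector group limits this comparison, as its SD reached 21.3 CPM for H2-K1 on a mean of 53.3 CPM.

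The change of Fst vector against GFP vector minus that of KO against WT was tested as a difference of effects in the 12-library fit. None of the 10 was called by edgeR or DESeq2, and 0.281% of all 15632 genes tested were called by edgeR. At an unadjusted p under 0.05 there was again none of the 10, against 9.95% of all genes tested. The widest difference was that of Cd74, at 1.35 ± 0.80 on the log2 scale (adjusted p = 0.617).

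Of 44 other genes of antigen presentation and its control, 35 passed the filter in the 12-library fit. Of the 35, 14 rose and 2 fell in vector libraries, while 12.6% of all genes tested were called higher. The median log2 change of the 35 was 0.40. Without GFP F, 11 rose and 2 fell. Among other class I genes, 5 of 11 tested rose and 1 fell. H2-T23, which encodes the non-classical molecule Qa-1, stood at 6.48, 9.52 and 6.97 CPM in Fst vector M1, M2 and F and at 9.40, 10.03 and 19.2 CPM in GFP vector M1, M2 and F, against 4.604 to 6.01 CPM in the non-vector libraries. It lay clear of them and rose by 0.88 ± 0.19 (adjusted p = 0.00495), and by 0.67 ± 0.14 without GFP F. H2-Q4 rose by 1.21 ± 0.25, H2-Q7 by 1.53 ± 0.34, H2-M3 by 1.08 ± 0.36 and Fcgrt, the neonatal receptor for immunoglobulin G that also pairs with B2m, by 0.42 ± 0.12. H2-Q4 rose by 0.94 ± 0.20 and H2-Q7 by 1.22 ± 0.295 without GFP F, where H2-M3 was no longer called (adjusted p = 0.0964 by edgeR). H2-T24 fell by -0.74 ± 0.17 (adjusted p = 0.00822), at 7.59 ± 2.57 CPM in vector and 12.1 ± 1.79 CPM in non-vector libraries (SD, n = 6 each). Reads of these class I genes can be shared with near-identical copies.

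Among the peptide supply and loading genes, 4 of 8 tested rose and none fell. Besides Psmb10, Psme1 and Psme2, which encode the activator cap of the proteasome, rose by 0.32 ± 0.11 and 0.42 ± 0.10, and Tapbpl, the tapasin-related peptide editor, rose by 0.66 ± 0.19. Tapbpl rose by 0.44 ± 0.145 without GFP F, where Psme1 was no longer called (adjusted p = 0.0555 by edgeR). Calr, Canx and Pdia3, chaperones of the endoplasmic reticulum that serve many proteins besides class I, were at 0.14 ± 0.15, -0.04 ± 0.10 and 0.06 ± 0.15, and the trimming peptidase gene Erap1 was at -0.03 ± 0.17, with none of these 4 called.

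Of other class II genes, 2 of 5 tested rose and none fell. H2-Eb1, the second beta chain, stood at 0.866 to 2.77 CPM in vector libraries, with a median of 1.39 CPM, and at 0.215 to 0.750 CPM in non-vector libraries, and rose by 1.86 ± 0.40 (adjusted p = 0.00511). Ctss, which encodes the cathepsin that trims the invariant chain, stood at 47.8 to 78.5 CPM in vector and 36.7 to 45.8 CPM in non-vector libraries and rose by 0.51 ± 0.10 (adjusted p = 0.00375). H2-Aa, the alpha chain that pairs with that of H2-Ab1, did not pass the filter. It stood at 0.491 to 2.29 CPM in vector libraries and at 0 to 0.429 CPM in non-vector libraries, with no overlap. H2-DMa, whose product exchanges peptides on class II molecules, was at -0.04 ± 0.14.

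Of 11 regulators of MHC transcription, 3 rose and 1 fell. Irf1, an interferon regulatory factor, stood at 16.8 to 24.2 CPM in vector libraries and at 11.1 to 14.5 CPM in non-vector libraries and rose by 0.65 ± 0.10 (adjusted p = 8.84e-04). GFP F, at 16.8 CPM, was the lowest of the vector libraries for Irf1. Irf8, a factor of microglia and other myeloid cells, rose by 0.95 ± 0.16 (adjusted p = 0.00130). Nlrc5 stood at 0.589, 1.22 and 1.99 CPM in Fst vector M1, M2 and F and at 2.23, 0.877 and 5.82 CPM in GFP vector M1, M2 and F, against 0.210 to 0.751 CPM in non-vector libraries. It rose by 1.65 ± 0.49 (adjusted p = 0.0251), and was at 1.16 ± 0.41 without GFP F (adjusted p = 0.0521).

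Ciita, which encodes the class II co-activator, went the other way from the class II genes. It stood at 0.982, 1.22 and 2.33 CPM in Fst vector M1, M2 and F and at 2.85, 1.85 and 4.68 CPM in GFP vector M1, M2 and F, against 4.73, 6.00 and 4.77 CPM in KO M1, F1 and M2 and 4.62, 3.86 and 3.09 CPM in WT M1, F1 and M2. Only GFP F reached the non-vector range. Ciita fell by -1.07 ± 0.25 on the log2 scale (adjusted p = 0.00872) and by -1.29 ± 0.24 without GFP F. Rfx5, Rfxank, Rfxap, Irf2, Nfkb1 and Rela were not called. In KO against WT edgeR called none of the 29 of these 44 genes that it tested. At an unadjusted p under 0.05 there were 3, against 5.96% of all genes tested. These were Nfkb1 at -0.28 ± 0.10 (adjusted p = 0.679), Fcgrt at -0.32 ± 0.14 and H2-Q4 at -0.64 ± 0.31. In Fst vector against GFP vector edgeR called none of 33, with 5 at an unadjusted p under 0.05, against 9.51% of all genes tested. The 3 with the smallest p were H2-T23 at -0.79 ± 0.31 (adjusted p = 0.462), Psme1 at 0.43 ± 0.17 and Ciita at -1.10 ± 0.46. In GFP vector against KO, H2-Q4, H2-Q7, H2-T23, Ctss and Irf8 rose, 5 of 35 tested, while 2.12% of all genes tested were called higher. None of these 5 was called when any 1 KO library was left out, and only H2-Q4 was called without GFP F. The difference of effects had none called of 35, with 3 at an unadjusted p under 0.05, against 9.95% of all genes tested. Of the 3, Ciita had the smallest p, at -1.55 ± 0.51 (adjusted p = 0.276).

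Position in the MHC was also compared. Within the interval on chromosome 17 that spans the 8 genes there, 7 of the 8 rose in vector libraries, as did 16 of 55 other genes tested that are in none of the pathway lists (29.1%), of which 1 fell. The median log2 change of those 55 genes was 0.16, against 1.06 for the 8.

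Genes known to respond to interferon and markers of other cell types were counted in the same fit. Of all genes tested in it, 12.6% were called higher in vector libraries. Of 27 interferon response genes, 13 of the 24 tested rose in vector libraries and none fell, among them Xaf1 (1.77 ± 0.26), Ifit3b (1.73 ± 0.31), Ifitm3 (1.72 ± 0.47) and Bst2 (1.24 ± 0.36). Without GFP F, 13 rose as well, with Xaf1 at 1.51 ± 0.22, Ifit3b at 1.41 ± 0.25, Ifitm3 at 1.10 ± 0.22 and Bst2 at 0.77 ± 0.21. Their summed level was 148 to 178 CPM in 5 vector libraries and 516 CPM in GFP F, against 112 to 129 CPM in non-vector libraries. Gbp2, a guanylate-binding protein gene, stood at 15.5 CPM in GFP F, at 1.86 to 3.54 CPM in the other vector libraries and at 0.322 to 1.29 CPM in non-vector libraries. Ifng and Ifnb1, which encode interferon gamma and interferon beta, were at 0 counts in all 12 libraries, which allows up to 0.371 CPM in the shallowest. The receptor genes Ifngr1 and Ifnar2 rose by 0.44 ± 0.15 and 0.52 ± 0.12, and without GFP F only Ifnar2 of the 4 tested was called. The part of interferon signalling in the rise of the 10 genes was not tested.

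Of 15 microglial markers, 6 rose (Aif1, C1qa, C1qb, C1qc, Trem2 and Tyrobp) and 2 fell (P2ry12 and Gpr34), and without GFP F 6 rose and 1 fell. Their summed level was 375 to 609 CPM in vector and 350 to 387 CPM in non-vector libraries, which overlapped. Cx3cr1, Csf1r and Tmem119, defining genes of microglia, were at 0.02 ± 0.07, 0.13 ± 0.07 and 0.22 ± 0.13. Of 8 astrocyte markers, 3 rose (Aldh1l1, Gfap and Vim, and 4 without GFP F), and their summed level was 2105 to 3418 CPM in 5 vector libraries and 7362 CPM in GFP F, against 1904 to 2061 CPM in non-vector libraries. Of 8 endothelial markers, Cldn5 and Ly6a rose, and without GFP F both rose and Flt1 fell. 

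The 11 T cell markers were too low to be tested, and summed to 0.371 to 1.91 CPM in vector and 0 to 0.967 CPM in non-vector libraries, where 5 of the 11 were at 0 in every library. Of 10 markers of B and plasma cells, 6 were tested and 3 rose, namely Igkc, Jchain and Ighg2b. Igkc, the kappa light chain of immunoglobulins, stood at 99.9, 6.89 and 35.7 CPM in Fst vector M1, M2 and F and at 24.8, 1.85 and 1.15 CPM in GFP vector M1, M2 and F, against 0 to 0.535 CPM in non-vector libraries. Of the dendritic cell markers, Itgax rose, 1 of 4 tested, and the list summed to 17.4 to 34.8 CPM in vector and 24.4 to 29.9 CPM in non-vector libraries. Border-associated macrophage markers summed to 11.9 to 23.5 CPM in vector and 14.7 to 22.6 CPM in non-vector libraries, with 0 of 3 tested called by edgeR, of which 0 had an unadjusted p under 0.05. Without GFP F, Stab1 of this list was called lower, at -0.32 ± 0.11. Monocyte and neutrophil markers were too low to be tested, at 0.390 to 1.62 CPM in vector and 0.105 to 1.06 CPM in non-vector libraries. Of 7 meningeal fibroblast markers edgeR called none, and 0 had an unadjusted p under 0.05. Of 2 choroid plexus markers tested, Kl fell. In KO F1, Kl made up 16.81 of the 19.59 CPM of the choroid plexus list. In the same library Stab1 made up 14.67 of the 17.13 CPM of the border-associated macrophage list. Flt3 made up 23.45 of the 29.87 CPM of the dendritic cell list there. In GFP F the parts of Kl and Flt3 were smaller, at 9.826 of 20.89 CPM and 6.106 of 18.03 CPM. Sums of these lists can thus follow single genes, and they do not measure the amount of the named cells. Markers of granule cells, which define this tissue, summed to 1441 to 2274 CPM in vector and 1959 to 2135 CPM in non-vector libraries, with GFP F lowest. Of 8, Prox1 (-0.49 ± 0.08) and Dsp (-1.43 ± 0.30) fell and C1ql2 (0.50 ± 0.09) rose, and without GFP F 2 rose and 3 fell. The part of any of these lists in the changes of the 10 genes was not tested.

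**Figure D4:**
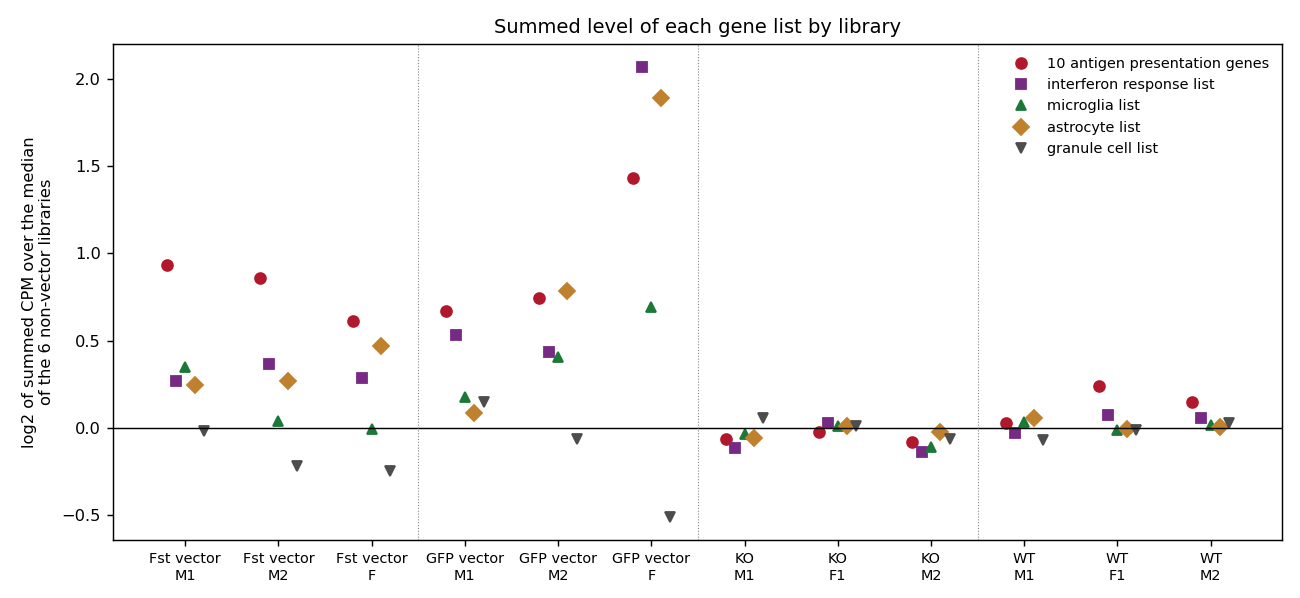
Summed CPM of 5 gene lists in each library, as log2 over the median of the 6 non-vector libraries, with dotted lines between the groups. The 10 antigen presentation genes sum to 191 to 337 CPM in the 6 vector libraries, all above the 118 to 147 CPM of the non-vector libraries, and in GFP vector F the interferon response and astrocyte lists stand highest.

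Within groups, much of the agreement between the genes rested on GFP F, though not for every pair. Over the deviations of the 12 libraries from their group means, the median Pearson correlation of the 45 pairs of genes was 0.70, and it was 0.264 without GFP F. Pairs then ran from -0.596, for Psmb8 and Cd74, to 0.846, for H2-D1 and H2-K1. The deviations share depth and the group means taken off, and the values are descriptions. Of 11637 other genes of at least 5 CPM, the 4 whose deviations were most like the mean of the 10 were Grn (r = 0.960), Uaca (0.946), Wnt7b (0.942) and Stat3 (0.940) over 12 libraries. Without GFP F none of them remained among the first 5, and their ranks were 187, 41, 705 and 781.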

How the data were processed

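Total RNA of 12 dentate gyrus libraries was sequenced. Both deposited tables, one for KO and WT and one for the vector groups, hold raw counts per gene, which the authors made on build GRCm38, as the submitters' processing notes record. The sources used here name no aligner, counter or strand setting. Rows naming no gene (6 and 12) held 0 counts and were left out. The 10 genes and all lists were chosen with earlier results of these data known. Groups were taken from titles and characteristics. Counts were tested with edgeR 4.0.16 in R 4.3.3 (filterByExpr, TMM scaling, robust quasi-likelihood test, Benjamini-Hochberg adjustment over all genes tested). KO against WT and Fst vector against GFP vector were fitted on their own 6 libraries, and comparisons across tables in a fit of 12 libraries in 4 groups. SE is the log2 change over the square root of F. DESeq2 1.42.0 was an alternative, as were other scalings, no filter, a sex term, a ribosomal RNA term, a replicate block and leaving out each library. The scripts were tested on simulated data. Symbols (52403 of 52636 IDs), exon lengths and coordinates came from GENCODE's GRCm38 annotation and promoters from RefSeq. CPM uses library totals, and exon length is that of all annotated exons merged.

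Named genes were the 10, genes of each list called in a comparison, the 3 pathway genes with the smallest p in each comparison, and the 5 genes most like the 10 in deviations of log2 CPM from group means. 1 gene that this rule or a list names is counted in the totals and not reported here. Other genes were named after their values had been seen, and of the genes called in marker lists some are given as counts. Replicate names were checked for pairing by correlating deviations from group means. Same-named Fst vector and GFP vector libraries correlated at 0.325, 0.138 and 0.390, all over 0.1, and were taken to pair, from the data and not from the labels. Same-named KO and WT libraries correlated at 0.0607, 0.130 and -0.0805 and were not. Fst vector M2 and GFP vector M1, which differ in name, correlated at 0.119, also over 0.1. The main fits used no pairing, and the replicate block was an alternative to them.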

Additional observations from a re-analysis of the deposited data

How the results depend on the processing

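For vector against non-vector libraries, 9 or 10 of the 10 genes were called under each alternative run, and 8 of 9 with H2-D1 and H2-K1 summed as 1 gene. No gene was called in KO against WT, in Fst vector against GFP vector or in the difference of effects under any alternative run. For GFP vector against KO the count ran between 0 and 8 when 1 library was left out, and calls over all genes ran between 7 and 1831 in the same fits. The cause was not tested. The replicate block changed no call of the 10 genes, at 0 for Fst vector against GFP vector, 0 for KO against WT, 9 for vector against non-vector libraries, 7 for GFP vector against KO and 0 for the difference of effects. Over all genes it raised the calls to 150 for Fst vector against GFP vector, against 12 without it, and to 19 for KO against WT, against 4 without it.

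Values near 0 turned sign under some alternatives, with none called and the cause not tested. In KO against WT, Tap2 was at 0.00095 with DESeq2 and between -0.109 and 0.0676 when 1 library was left out, and Psmb8 between -0.287 and 0.0455. In Fst vector against GFP vector, leaving out 1 library put H2-D1 between -0.362 and 0.0791, B2m between -0.317 and 0.0378, Tapbp between -0.214 and 0.0866 and Psmb9 between -0.498 and 0.406, with the highest value of each without GFP F. In GFP vector against KO, Tap2 lay between -0.121 and 0.526, with the lowest value without GFP F. The adjusted p of H2-D1 in KO against WT ranged from 0.0650 to 1.0 over the alternatives. Depth limits Cd74 and H2-Ab1 most, with 1 to 10 counts in each non-vector library.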
